A study of Mus musculus with 8 samples.

Results

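Broad H3K4me3 domains are stretches of chromatin over which trimethylation of lysine 4 of histone H3 extends well beyond the usual width of a promoter peak. Here they are the H3K4me3 regions on chromosomes 1 to 19 and X whose end minus start was 2000 bases or more, which holds for 1807 of 19790 regions (9.13%). The other 17983 regions are called narrower below. The regions were thus chosen by the width of the peaks in the deposited H3K4me3 list, so every H3K4me3 value is given as a description and not as a finding. The data are chromatin immunoprecipitation followed by sequencing on nuclei of skeletal muscle from WT mice of strain C57/Bl6J, aged 10 to 12 weeks. Antibodies were directed against H3K4me3, H3K4me1, H3K27ac, RNA polymerase II (Pol2), the glucocorticoid receptor (GR) and the architectural protein CTCF (labelled Ctcf), with 1 library each. Input2 was the control of H3K4me3 and CTCF, and Input1 was the control of the other 4 antibodies, so antibody and input cannot be told apart when peak lists are compared. No treatment, sex or muscle is given in the labels, and no library was replicated. Intervals below are 95% intervals that count regions or genes as independent, cover counting error only and say nothing of variation between animals.

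H3K4me3 is written at promoters by the SETD1 and MLL (KMT2) methyltransferases, which work in COMPASS complexes together with WDR5, RBBP5, ASH2L and DPY30. The SETD1 complexes are brought to unmethylated CpG-rich DNA by the subunit CXXC1, and KDM5 enzymes remove the mark. In many cell types the widest H3K4me3 domains are known to lie at genes of cell identity and at genes that are transcribed with high consistency. H3K4me1 usually marks enhancers and the flanks of promoters, and H3K27ac marks promoters and enhancers that are active.

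The DNA under the H3K4me3 summits of the broad regions spans CpG-poor and CpG-rich promoters, and the 200 bases at the summit are shown for both kinds. Sequences are from mm10, read 5′ to 3′ on the strand of the gene, with each CG dinucleotide in capitals. The first 3 are the broad regions with the lowest CpG density among the widest regions and the fixed panel of genes, and the next 3 are those with the highest. The last 2 are the narrower regions of the panel with the lowest and the highest density. The windows are chr7:142499171-142499370 (plus strand) at Tnnt3, fast skeletal troponin T, chr13:83504239-83504438 (plus) at the muscle transcription factor gene Mef2c, and chr2:76980634-76980833 (minus) at the giant sarcomere protein gene Ttn. They are chr8:126593000-126593199 (minus) at the co-repressor gene Irf2bp2, chr10:126979169-126979368 (plus) at the phosphatase gene Ctdsp2, and chr13:63565484-63565683 (minus) at the Hedgehog receptor gene Ptch1. For the narrower regions they are chr7:19411647-19411846 (plus) at muscle creatine kinase, Ckm, and chr17:28485634-28485833 (minus) at the GR co-chaperone gene Fkbp5.
Tnnt3: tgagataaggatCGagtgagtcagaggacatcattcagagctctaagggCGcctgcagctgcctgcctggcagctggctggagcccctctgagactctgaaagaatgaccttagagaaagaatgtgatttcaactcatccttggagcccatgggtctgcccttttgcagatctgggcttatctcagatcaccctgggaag
Mef2c: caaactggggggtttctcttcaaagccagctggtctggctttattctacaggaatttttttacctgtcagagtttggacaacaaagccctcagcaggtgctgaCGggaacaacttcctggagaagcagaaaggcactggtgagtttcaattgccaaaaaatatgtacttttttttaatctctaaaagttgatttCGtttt
Ttn: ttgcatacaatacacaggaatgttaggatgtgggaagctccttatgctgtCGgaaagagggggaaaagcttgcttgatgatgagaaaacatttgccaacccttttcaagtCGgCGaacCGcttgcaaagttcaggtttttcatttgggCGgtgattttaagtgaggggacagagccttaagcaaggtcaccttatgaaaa
Irf2bp2: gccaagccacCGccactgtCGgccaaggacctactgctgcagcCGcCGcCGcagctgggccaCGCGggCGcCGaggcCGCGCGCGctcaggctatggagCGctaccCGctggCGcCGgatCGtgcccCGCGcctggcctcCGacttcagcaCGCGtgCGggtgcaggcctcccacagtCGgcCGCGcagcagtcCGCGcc
Ctdsp2: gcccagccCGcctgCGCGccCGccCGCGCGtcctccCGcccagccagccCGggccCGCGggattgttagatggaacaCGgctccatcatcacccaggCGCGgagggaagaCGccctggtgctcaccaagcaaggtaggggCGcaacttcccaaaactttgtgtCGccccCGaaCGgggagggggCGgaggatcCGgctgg
Ptch1: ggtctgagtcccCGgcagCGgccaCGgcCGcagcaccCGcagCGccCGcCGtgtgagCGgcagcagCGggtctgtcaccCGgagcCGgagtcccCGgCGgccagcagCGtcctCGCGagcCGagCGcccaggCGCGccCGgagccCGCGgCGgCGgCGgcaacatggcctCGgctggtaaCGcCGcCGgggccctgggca
Ckm: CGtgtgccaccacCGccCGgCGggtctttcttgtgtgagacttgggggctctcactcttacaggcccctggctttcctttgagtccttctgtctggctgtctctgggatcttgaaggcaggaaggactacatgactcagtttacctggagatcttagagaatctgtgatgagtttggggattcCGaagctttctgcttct
Fkbp5: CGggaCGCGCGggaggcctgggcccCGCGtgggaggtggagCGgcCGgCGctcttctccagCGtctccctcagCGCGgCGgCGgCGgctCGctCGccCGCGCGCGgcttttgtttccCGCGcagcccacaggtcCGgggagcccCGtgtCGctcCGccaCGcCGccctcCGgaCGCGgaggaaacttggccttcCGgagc
The windows of the broad regions at Tnnt3, Mef2c and Ttn hold 2, 2 and 5 CG dinucleotides. Those of the broad regions at Irf2bp2, Ctdsp2 and Ptch1 hold 29, 21 and 31. The windows of the narrower regions at Ckm and Fkbp5 hold 5 and 33, so both kinds of sequence occur on either side of the 2000-base threshold.

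Most broad regions were moderately wider than the threshold, and a small number stood far beyond it. The median width was 2384 bases, the quartiles were 2148 and 2811 bases and the widest region measured 7890 bases, while narrower regions ran from 191 to 1999 bases with a median of 875. At least 3000 bases were reached by 344 regions, at least 4000 by 87 and at least 5000 by 23. Broad regions covered 4.73 Mb, which is 22.7% of all bases in H3K4me3 regions, and narrower regions covered 16.1 Mb. The authors' deposited fold enrichment at the summit had a median of 39.0 in broad regions (range 6.28 to 81.1) and 16.5 in narrower ones (range 1.70 to 95.4). The highest single fold values were thus in narrower regions. Per chromosome, the share of regions that were broad lay between 5.80% on chromosome X and 11.2% on chromosome 12.

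The threshold cuts through a continuous distribution of widths. Just inside it were the regions shared by Ska2 and Prr11 (2000 bases), at the AP-1 gene Jund (2001 bases) and shared by Nln and Sgtb (2002 bases). Just outside it were those at Rasip1 and Zfp263 (1999 bases each) and one with no protein-coding start within 1 kb whose nearest protein-coding gene was Chd2 (1998 bases). The count also depends on whether neighbouring peaks are taken as 1 region. Another H3K4me3 peak lay within 500 bases of 391 broad regions (21.6%) and of 3884 narrower regions (21.6%). When H3K4me3 peaks closer than 500 bases were merged first, 2294 regions were 2000 bases or wider.

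**Figure D1:**
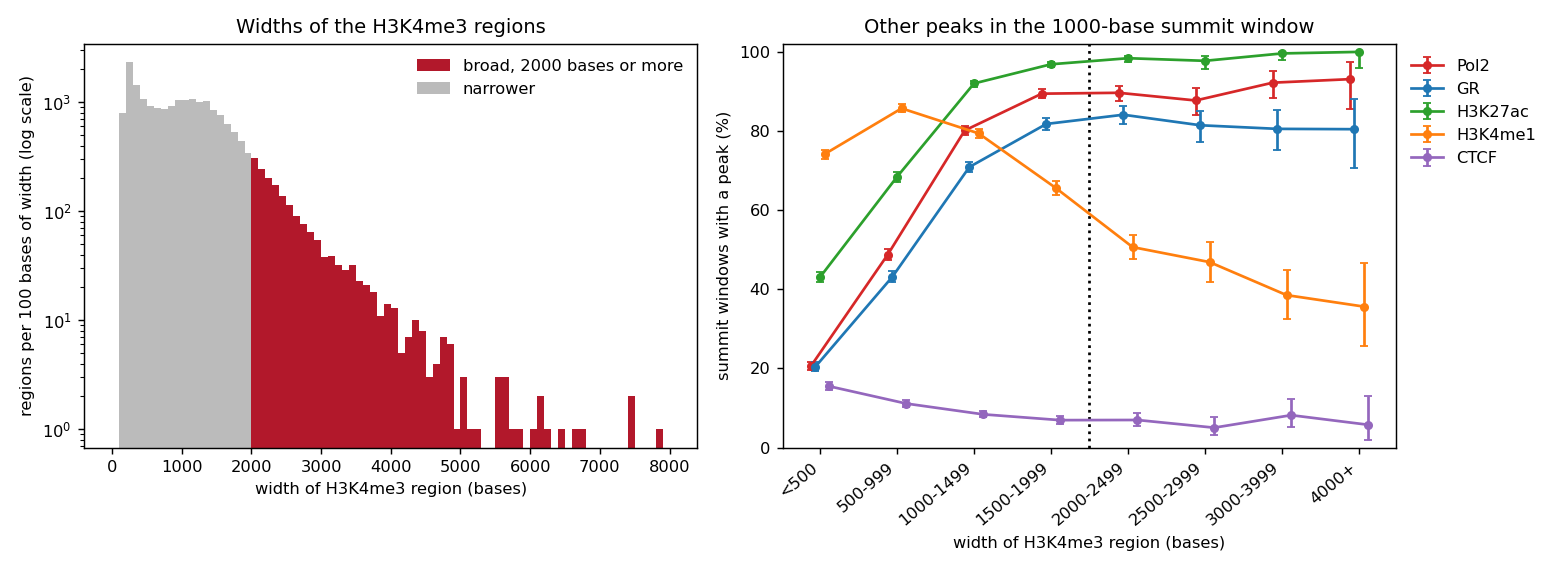
Left, number of H3K4me3 regions (log scale) per 100 bases of width, with broad regions in red and narrower regions in grey. Right, share of regions (%) with a peak of each other antibody in the 1000-base window at the H3K4me3 summit, by width class, with exact 95% intervals and a dotted line at 2000 bases. H3K4me1 falls to 35.6% in regions of 4000 bases or more, while H3K27ac reaches 100% and Pol2 93.1% there.

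Nearly all broad regions lay near the start of a gene. A protein-coding transcription start site (TSS) lay within 1 kb of the summit of 1685 broad regions (93.2%, interval 91.99 to 94.4%), of 12732 narrower regions (70.8%, 70.1 to 71.5%) and of 72.8% of all H3K4me3 regions. The difference was 22.4 points (21.03 to 23.7). Within 1 kb of the region as a whole, 98.0% of broad and 76.8% of narrower regions had an annotated TSS of any gene type. The share was not highest in the widest class. It was 95.7% among regions of 2000 to under 2500 bases and 82.8% (73.2 to 90.02%) among the 87 regions of 4000 bases or more.

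Active chromatin was the rule at the centre of the broad regions. In the window of 1000 bases centred on the H3K4me3 summit, the same size for every region, an H3K27ac peak was present in 1780 broad regions (98.5%, 97.8 to 99.0%), 71.3% of narrower regions and 73.8% of all regions. Pol2 was present in 1622 broad regions (89.8%, 88.3 to 91.1%), 54.8% of narrower regions and 58% of all regions. GR was present in 1497 broad regions (82.8%, 81.0 to 84.6%), 49.6% of narrower regions and 52.6% of all regions. Broad minus narrower, these differences were 27.2 points for H3K27ac (26.2 to 28.0), 34.97 points for Pol2 (33.3 to 36.5) and 33.3 points for GR (31.3 to 35.1). All 3 were found together in 79.9% of broad and 43.0% of narrower summit windows. None of the 3 lay anywhere in 19 broad regions (1.05%) and in 27.8% of narrower ones.

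The size of these differences depended on which narrower regions were used. A comparison added after the values were seen set broad regions against narrower regions of 1000 to 1999 bases alone. The difference was then 4.78 points for H3K27ac (3.93 to 5.51), 6.35 points for Pol2 (4.66 to 7.91), 8.11 points for GR (6.06 to 10.0) and 0.595 points for a TSS near the summit (-0.776 to 1.82). In the plot of peak shares by width class the curves for H3K27ac, Pol2 and GR rise steeply below 1500 bases. They change little above that width: Pol2 was in 89.7% of windows in regions of 2000 to under 2500 bases, against 89.4% in regions of 1500 to under 2000 bases.

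H3K4me1 followed a different course and was less frequent at the centre of broad than of narrower regions. It was present in the summit window of 856 broad regions (47.4%, 45.0 to 49.7%), 77.3% of narrower regions and 74.6% of all regions, a difference of -29.9 points (-32.3 to -27.6). Against narrower regions of 1000 to 1999 bases the difference was still -27.2 points (-29.7 to -24.7). The share was 74.2% in regions under 500 bases and 85.7% in those of 500 to under 1000 bases. Above that it was lower in each wider class, with 50.7% among regions of 2000 to under 2500 bases, 38.5% among those of 3000 to under 4000 bases and 35.6% (25.6 to 46.6%) among those of 4000 bases or more. Within the H3K4me3 region, H3K4me1 peaks covered a median of 28.9% of a broad region and 100% of a narrower one.

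At the edges of the broad regions H3K4me1 was common. Within 1 kb outside both edges it was found at 76.0% of broad regions (73.9 to 77.9%) and at 66.7% of narrower ones, and outside at least 1 edge at 97.0% of broad and 89.3% of narrower regions. When any overlap with the whole region was counted, the order turned round, with 88.9% of broad and 81.8% of narrower regions. Width enters that last count directly, since a wider region can meet more peaks. Among the broad regions, 359 were covered by H3K4me1 over 90% or more of their width and 201 had none.

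Around gene starts the broad regions showed a hollow of H3K4me1 between shoulders on either side. For 1427 broad and 9756 narrower regions that held the TSS of exactly 1 protein-coding gene, peaks were laid out along the direction of transcription. At the TSS itself H3K4me1 covered 30.3% of broad and 61.7% of narrower regions. Its maximum lay 2475 bases downstream of the TSS in broad regions (70.1% covered) and 925 bases downstream in narrower regions (67.0%). H3K27ac also differed on the 2 sides of the TSS, covering 70.2% of broad and 12.4% of narrower regions at 1000 bases downstream, and 29.4% of broad and 5.58% of narrower regions at 1000 bases upstream. Pol2 was highest 75 bases downstream of the TSS in both classes (74.1% of broad and 58.2% of narrower regions). At 1000 bases downstream it still covered 15.3% of broad and 1.59% of narrower regions. The regions were chosen by width, and their median reach downstream of the TSS was 1776 bases in broad and 796 bases in narrower ones. A point 1000 bases downstream thus lies inside most broad and outside most narrower regions. The contrasts at 1000 bases and the places of the H3K4me1 maxima are therefore not free of width, and its part in them was not tested.

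**Figure D2:**
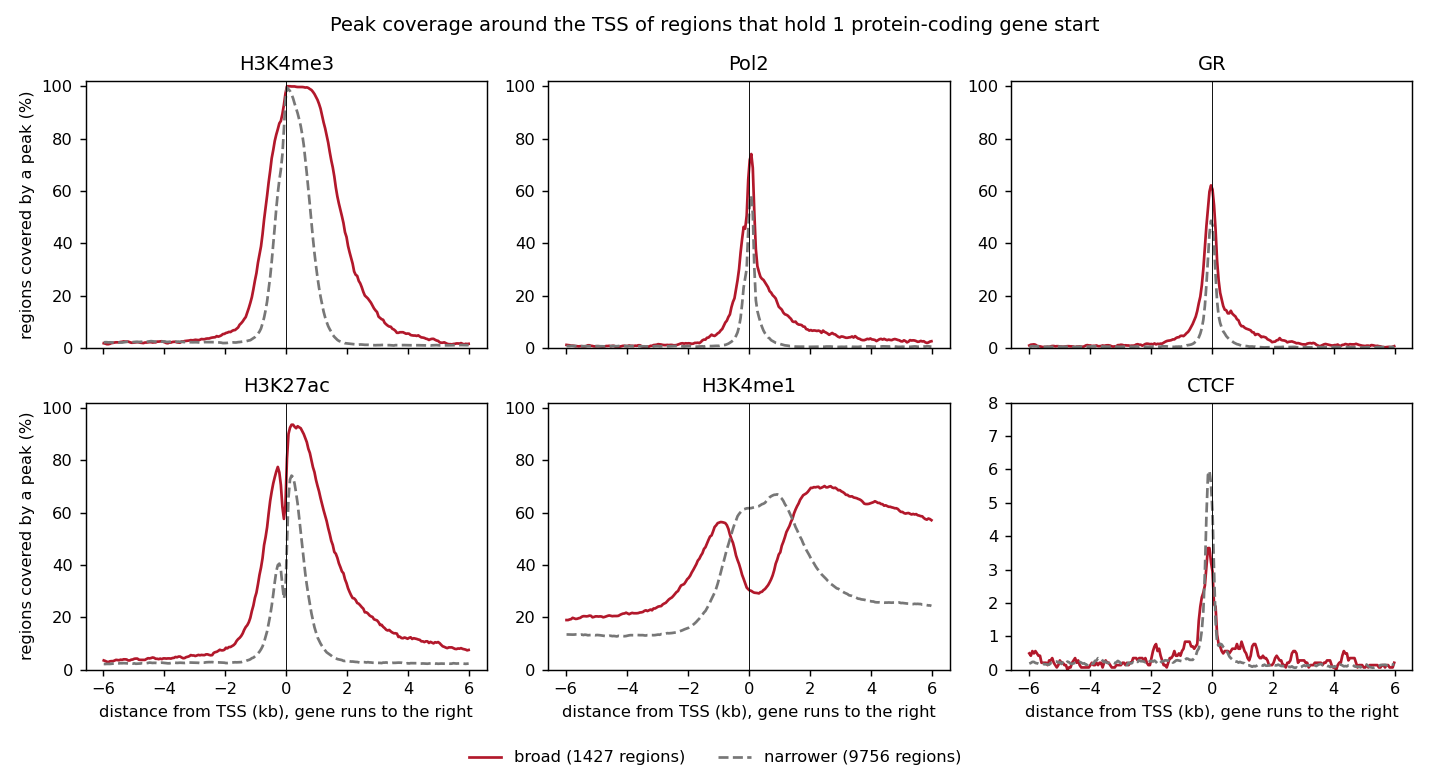
Share of regions (%) covered by a peak of each antibody against the distance from the TSS in kb, for regions that hold the TSS of 1 protein-coding gene, with broad regions as solid red lines and narrower regions as dashed grey lines. The CTCF panel has its own scale, and the H3K4me3 panel shows the measure that chose the regions. In broad regions H3K4me1 is at 30.3% at the TSS and at 70.1% 2475 bases downstream of it.

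CTCF peaks were infrequent in both classes. The summit window held one in 120 broad regions (6.64%, 5.54 to 7.89%), 11.1% of narrower regions and 10.7% of all regions, a difference of -4.44 points (-5.60 to -3.12). This difference was not distinguishable from 0 against narrower regions of 1000 to 1999 bases (-1.22 points, -2.45 to 0.147) or among regions with a TSS near the summit (-1.20 points, -2.41 to 0.181). Over the whole region CTCF was found in 11.1% of broad and 10.8% of narrower regions, a difference of 0.297 points (-1.15 to 1.89). Up to 2 CTCF peaks lay inside a broad region, as at Jag1, which encodes a Notch ligand, at the prothymosin gene Ptma, at the glycolytic regulator gene Pfkfb3 and at the cytokine-signalling inhibitor gene Socs1.

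Broad regions lay mainly over the start of the gene body. With the most upstream TSS in the region as the origin, a median of 1776 bases lay downstream of the TSS in broad regions (quartiles 1414 and 2219) and 796 bases in narrower regions. Upstream, the medians were 683 bases in broad and 310 bases in narrower regions. As a share of width, the downstream part was close in the 2 classes, with medians of 72.5% in broad and 71.5% in narrower regions. With the most downstream TSS in the region as the origin, the median for broad regions was 54.0%. The extremes were Irs1, the insulin receptor substrate gene, with 7026 bases downstream and 864 upstream, and Setd1b, an H3K4 methyltransferase gene, with 1791 downstream and 5663 upstream. Annotated non-coding genes start within 1 kb of the Setd1b region (4932422M17Rik, AI480526 and Gm38102).

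Start sites of several genes often shared a broad region. Protein-coding TSS on both strands lay inside 266 broad regions (14.7%, 13.1 to 16.4%) and 4.68% of narrower ones, and the TSS of a non-coding gene lay inside 23.1% of broad and 9.88% of narrower regions. The TSS of 2 protein-coding genes were inside 277 broad regions (15.3%) and 5.17% of narrower ones, and those of 3 or more inside 11 broad regions. A wider region can hold more start sites, so these shares are not free of width. By class of width, 2 or more genes were held by 17.6% of regions of 2000 to under 2500 bases and by 8.05% of those of 4000 bases or more, against 16.7% of regions of 1500 to under 2000 bases. Holding 2 or more genes was thus less frequent in the widest class.

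No annotated TSS lay within 1 kb of 36 broad regions. The widest of these measured 3925 bases and had Hfe2, the hemojuvelin gene, as its nearest protein-coding gene, with the TSS 25376 bases from the summit. It had no Pol2 and no GR peak, and H3K27ac covered 51.8% of it. A region of 3540 bases had its summit 64305 bases from the TSS of the nuclear receptor gene Ppara, carried 5 Pol2 and 2 GR peaks and had a CpG density of 12.9 CG dinucleotides per 100 bases. Another of 3519 bases had its summit 2156 bases from the TSS of Kdm6b, an H3K27 demethylase gene, with 5 Pol2 and 5 GR peaks. Near Myl1, an essential light chain of fast myosin, a region of 3225 bases was covered by H3K27ac over 99.4% of its width.

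Pol2 coverage sorted the broad regions into a large middle class and 2 smaller extremes. The classes were chosen after the values were seen. Pol2 peaks covered 50% or more of the width in 188 broad regions (10.4%), 10% to under 50% in 1282 (70.9%) and above 0 to under 10% in 219 (12.1%), and 118 (6.53%) had no Pol2 peak. The median coverage was 22.5% in broad and 9.96% in narrower regions. From the class with the most Pol2 to the class with none, H3K27ac covered a median of 96.9%, 81.4%, 69.1% and 42.0% of the broad region. H3K4me1 ran the other way, with 16.1%, 26.1%, 58.3% and 96.7%. GR was present in 99.5%, 95.6%, 75.8% and 39.8% of the regions of these classes, so regions rich in Pol2 were also those with H3K27ac and GR and with little H3K4me1. These are descriptions across regions of single libraries and were not tested.

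Genes with a broad region more often carried Pol2 beyond 5 kb from their most upstream TSS. Protein-coding genes of 10 kb or more were searched from 5 kb downstream of that TSS to the gene end. A Pol2 peak lay there at 465 of 1573 genes with a broad region (29.6%, 27.3 to 31.9%). The same held for 1155 of 8739 genes with narrower regions only (13.2%, 12.5 to 13.9%) and for 15.7% of both together. A region near any TSS of the gene was counted. One at an internal TSS can lie in this stretch with its own Pol2 peak, and the part of this was not tested. The difference of 16.3 points (14.0 to 18.7) was 14.1 points (11.7 to 16.6) when genes whose widest narrower region measured 1000 to 1999 bases were the comparison. Genes with a broad region were also longer, with a median of 31922 bases, against 24493 bases for genes with narrower regions only. The part of gene length in this difference was not tested beyond genes of 50 kb or more, where it was 17.98 points (14.4 to 21.7). A GR peak lay within 25 kb of the TSS of 93.4% of genes with a broad region and of 77.2% of genes with narrower regions only. That window can take in the H3K4me3 region itself, so this count is not separate from GR peaks inside the regions.

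The broad regions were richer in CpG than the narrower ones, above all at the summit. In the 1000-base summit window the median was 8.8 CG dinucleotides per 100 bases in broad regions (quartiles 6.3 and 11) and 5.2 in narrower regions (2.7 and 7.5). The GC content had medians of 65.9% in broad and 57.2% in narrower regions. Over the whole region the medians were 6.09 in broad and 5.14 in narrower regions, a difference of 0.948 instead of 3.6. Against narrower regions of 1000 to 1999 bases the difference in median CpG density of the summit window was 1.8 instead of 3.6 per 100 bases. Broad regions occurred at both ends of CpG density. Of the regions with 10 or more CG dinucleotides per 100 bases, 670 (28.5%) were broad, and of those with fewer than 2, 97 (3.13%) were broad.

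The CpG-poor broad regions were unlike the others in what covered them. The 97 regions with fewer than 2 CG dinucleotides per 100 bases had a median deposited fold of 16.7, and the 670 with 10 or more had 47.7. Pol2 covered 50% or more of the width in 30 of the CpG-poor regions (30.9%, 21.9 to 41.1%) and in 53 of the CpG-rich ones (7.91%, 5.98 to 10.2%). H3K27ac covered a median of 95.6% of the CpG-poor and 80.2% of the CpG-rich regions. No H3K4me1 peak lay in 37 of the CpG-poor regions (38.1%) and in 70 of the CpG-rich ones (10.4%). GR went the other way from Pol2, with a median coverage of 6.85% of the CpG-poor and 21.1% of the CpG-rich regions. A protein-coding TSS lay near the summit of 70.1% of the CpG-poor and 97.5% of the CpG-rich regions. Of the 97 CpG-poor broad regions, 17 (17.5%) were at genes of the muscle transcription factor, fast or common sarcomere, or glycolysis lists described below, against 3 of the 670 CpG-rich ones (0.448%). Between these classes it was 9 of 189 regions (4.76%) with 2 to under 5 CG dinucleotides per 100 bases. With 5 to under 10 it was 22 of 851 (2.59%), so by number more of them lay there than in the CpG-poor class.

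Of 7 short motifs searched in the summit windows, 3 differed between the classes by more than the interval. On both strands, the SP1-type GC box GGGCGG was in 89.2% of broad windows (87.7 to 90.6%), 73.2% of narrower windows and 74.7% of all windows. The TATA-like string TATAAA was in 13.6% of broad windows (12.0 to 15.2%), 24.7% of narrower windows and 23.7% of all windows, and the CCAAT box (CCAAT) in 55.6% of broad, 66.9% of narrower and 65.9% of all windows. For the remaining strings the interval of the difference included 0. The E-box CAGCTG, a string bound by myogenic regulators, was in 41.4% of broad, 43.5% of narrower and 43.3% of all windows (difference -2.002 points, -4.37 to 0.397). The ETS string CCGGAAG was in 20.5% of broad, 22.4% of narrower and 22.2% of all windows (-1.88 points, -3.78 to 0.131). The CRE string TGACGTCA was in 3.27% of broad, 3.48% of narrower and 3.46% of all windows. The consensus palindrome of NRF1 was in 1.49% of broad, 1.85% of narrower and 1.81% of all windows. The windows were not matched for base composition, and none of these strings contains another. A match describes letters in the window and no binding.

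**Figure D3:**
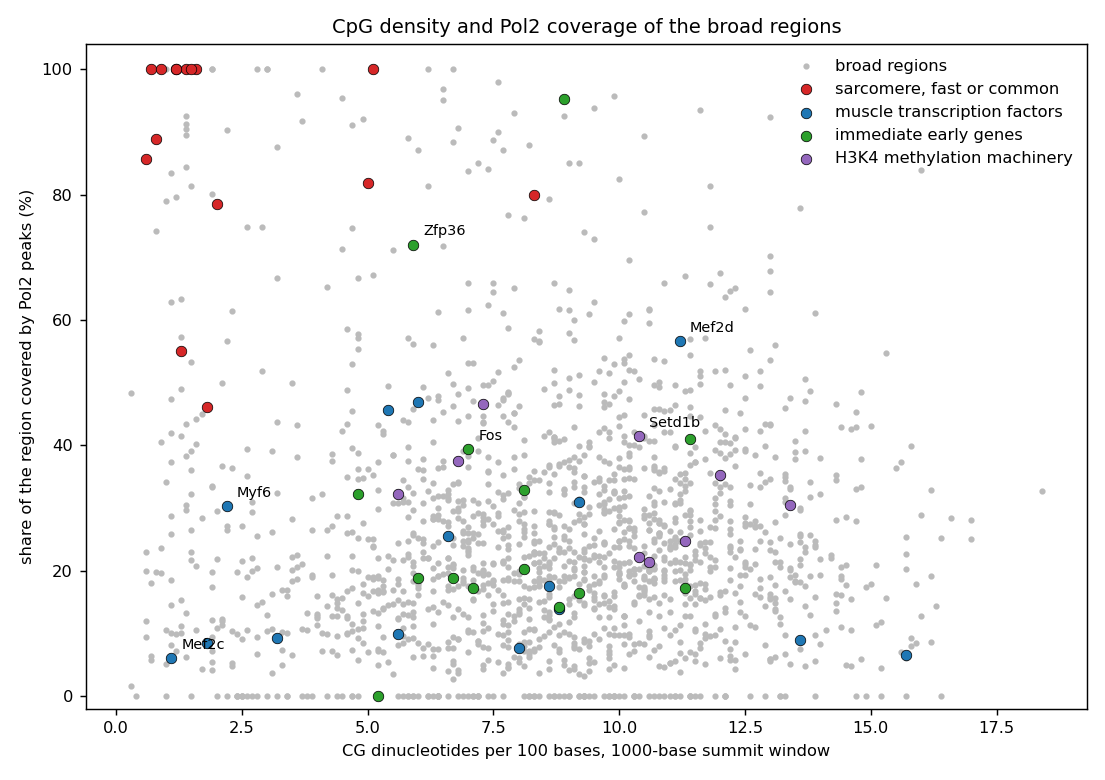
Each grey point is a broad region, placed by CG dinucleotides per 100 bases of its summit window and by the share of its width covered by Pol2 peaks (%), with members of 4 gene lists in colour. Sarcomere genes gather at the upper left, with a median of 1.4 CG dinucleotides per 100 bases and a median Pol2 coverage of 100%, while H3K4 methylation genes lie at 5.6 or more and below 50%.

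At the level of genes, 2017 of 21755 protein-coding genes had a broad region within 1 kb of a TSS, which is 9.27% of all and 15% of the 13482 with any H3K4me3 region there. Lists of genes were read against these shares as descriptions, without a test, and in bulk tissue fewer cells of a type and less signal per cell cannot be told apart. For each marked gene the widest region near a TSS was taken, with a median of 1317 bases over all protein-coding genes. Of 26 lists, 17 had a larger share of broad regions among their H3K4me3-marked members than the 15% background. With a threshold of 3000 bases, where the background was 2.69% of marked genes, the number was 12. The slow sarcomere, neuromuscular junction, fibroblast, Schwann cell and replication-dependent histone lists then had no member with such a region. The lists share some genes, and the muscle fibre list lies wholly within the fast or common sarcomere list. The highest shares were those of glycolysis and glycogen, immediate early and muscle transcription factor genes, and 6 lists of cell type markers were at 0.

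Most muscle transcription factor genes had a broad region, 15 of 22 (68.2%, 45.1 to 86.1%), and the median width over the 20 marked members was 2513.5 bases. The widest was at Maf, a basic leucine zipper factor, with 5745 bases, followed by Myf6 (MRF4), the myogenic factor of mature fibres, with 4081 bases. Mef2d had 3930 bases, Myod1 3604 bases, Mef2c 3236 bases and Eya4, a transcriptional coactivator, 2805 bases. Mef2a, with 1979 bases, lay just under the threshold. Myog, the myogenic factor of differentiation, had no H3K4me3 region within 1 kb of a TSS, and neither had Myf5. Pol2 coverage of these regulator regions was low, with a median of 13.9%, and 1 of 15, at Mef2d (56.6%), was covered over 50% or more.

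Genes of the fast or common sarcomere had broad regions at 15 of 30 members (50%, 31.3 to 68.7%), with a median width of 2193 bases over the 28 marked ones. With the TSS inside the region the count was 12 of 30 (40%). The broad regions at the 15 members were of another make. Their median was 1.4 CG dinucleotides per 100 bases, 11 of the 15 were below 2, and Pol2 covered 50% or more of 14. The widest was at Tpm2, which encodes beta-tropomyosin, with 4685 bases, 5.0 CG dinucleotides per 100 bases and a Pol2 coverage of 81.9%. Tpm1, which encodes alpha-tropomyosin, had 3946 bases. Atp2a1, the calcium pump of fast fibres, had 3904 bases with 1.5 CG dinucleotides per 100 bases, 4 GR peaks and full Pol2 coverage, and a second broad region of 2118 bases lay in the same gene. Neb, which encodes nebulin, had 3261 bases, Tnnt3 2888 bases and Ttn 2702 bases. The H3K4me3 regions of 3 other abundant fast-fibre genes were narrower, with 1929 bases at Acta1, 1752 bases at Myh4 and 1693 bases at Ckm, although Pol2 covered 100% of each.

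Deposited fold enrichment at the sarcomere regions was low for broad regions. It was 11.5 at Ttn, 14.4 at Tnnt3 and 18.1 at Atp2a1, against the median of 39.0 over all broad regions. Width and height of the H3K4me3 signal thus went apart at these genes. Slow sarcomere genes had a broad region at 2 of 12 members (16.7%), Atp2a2 (2039 bases) and Tnnc1 (2035 bases, shared with Nisch). This was 40% of the 5 marked members, against 9.27% of all and 15% of marked protein-coding genes. Myh7, the slow myosin heavy chain gene, had no H3K4me3 region near its TSS. Of 14 neuromuscular junction genes 3 had a broad region (21.4%, and 30% of the 10 marked ones), the widest 2296 bases at Utrn, which encodes utrophin. Chrna1, Chrnd and Chrne, subunits of the acetylcholine receptor, had no H3K4me3 region within 1 kb of a TSS, while the subunit gene Chrnb1 had one of 610 bases.

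Glycolysis and glycogen metabolism had a broad region at 17 of 21 genes (81.0%, 58.1 to 94.6%), with a median width of 2661 bases over its members. With the TSS inside the region the count was 15 of 21 (71.4%), against 13 of 18 (72.2%) for immediate early genes, so the order of these 2 lists was not settled. Eno3, the muscle enolase, shared the third widest region of all, 7428 bases, with the actin-binding protein gene Pfn1. Gapdh had 5025 bases with a Pol2 coverage of 81.3%. Ppp1r3a, which targets a phosphatase to glycogen, had 4367 bases with only 13.2% Pol2 coverage and 1.4 CG dinucleotides per 100 bases. Pygm, the muscle glycogen phosphorylase, had 3880 bases and Slc2a4, the insulin-responsive glucose transporter GLUT4, 2983 bases. The 4 members without one, Gyg, Pgk1, Pfkm and Gpi1, had H3K4me3 regions of 1337 to 1608 bases.

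Glucocorticoid-responsive genes were divided, with a broad region at 13 of 25 (52.0%, 31.3 to 72.2%) and a median width of 2457 bases. Sgk1, a kinase named for its induction by serum and glucocorticoids, had 6130 bases with a Pol2 coverage of 98.0%, and Klf9, a glucocorticoid-induced transcription factor, had 4857 bases and 74.8%. The ubiquitin ligase genes of muscle wasting, Fbxo32 (atrogin-1) and Trim63 (MuRF1), had 4107 and 3533 bases, and Foxo3, which activates both, had 3762 bases. Fkbp5, Per1, Klf15 and Pdk4 had narrower regions of 1354, 1310, 1488 and 867 bases. Pol2 covered 50% or more of 10 of the 13 broad regions, with a median of 83.9%. Mstn, the gene of the growth inhibitor myostatin, had a region of 2047 bases with no GR peak and a Pol2 coverage of 4.25%.

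Clock and immediate early genes also stood above the background. Of 19 clock genes, 10 had a broad region, with 4710 bases at Bhlhe41 and 3427 bases at Bhlhe40, both repressors of the clock, and 3374 bases at Dbp, an output factor. The core repressors Per1, Per2, Per3, Cry1 and Cry2 had narrower regions of 1310 to 1860 bases. Immediate early genes, which answer stimuli within minutes, had a broad region at 14 of 18 (77.8%, 52.4 to 93.6%) and a median width of 2649 bases. The widest were at Zfp36, a factor of mRNA decay, with 4577 bases, Myc with 4373 bases and Klf4 with 4338 bases. Their median Pol2 coverage was 19.6%, and 2 of the 14, Zfp36 (72.0%) and Jun (95.2%), were covered over 50% or more.

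Genes of the H3K4 methylation machinery often carried broad regions themselves. In a list of 17 genes, which mixes methyltransferases, partner proteins and demethylases, 9 had one (52.9%, 27.8 to 77.02%). The median width was 2089 bases. Setd1b had the second widest of all regions, 7454 bases, and Kmt2e, a MLL family member, had 4739 bases and Kmt2c, an enhancer methyltransferase, 3427 bases. Kmt2a (3056 bases), Kmt2d (3022 bases), Kmt2b (2116 bases) and Setd1a (2089 bases) also had one, as did the host cell factor gene Hcfc1 (3130 bases) and the demethylase gene Kdm5a (2359 bases). The shared subunits Wdr5 (1679 bases), Rbbp5 (1701 bases), Ash2l (1714 bases) and Dpy30 (1310 bases), and the CpG-binding subunit gene Cxxc1 (1192 bases), had narrower regions.

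Among general lists, broad regions were found at 6 of 15 housekeeping genes (40%), the widest being at Gapdh, the cytoskeletal actin gene Actb (2958 bases) and Ywhaz (2949 bases). Of 18 tumour suppressor genes 6 had one (33.3%), with 3295 bases at Arid1a and 2935 bases at Cdkn1b. Every member of these 2 lists was marked, and both shares were above the 15% of marked genes. Genes that match the symbol pattern for ribosomal proteins had one in 6 of 98 cases (6.12%), against 9.27% of all protein-coding genes, or in 6 of the 88 marked ones (6.82%), against the 15% of marked genes. The pattern also takes in 10 S6 kinase genes, of which 1, Rps6ka3, had a broad region (3367 bases). Without them the count was 5 of the 88 remaining members, of which 79 were marked. Oxidative phosphorylation genes had one in 13 of 97 cases (13.4%), with 3235 bases at Uqcrh. Of the 91 marked ones it was 14.3%, close to the 15% of marked genes. These 2 counts turn on the threshold, since at 1500 bases they were 40 of 98 for the ribosomal pattern and 47 of 97 for oxidative phosphorylation, which is 45.5% and 51.6% of their marked genes, against 37.2% of all marked genes. At 2000 bases, Zfp-numbered zinc finger genes had a broad region in 32 of 394 (8.12%), with 4786 bases at Zfp503. Of the 340 marked ones it was 9.41%, against the 15% of marked genes. Replication-dependent histone genes had one in 12 of 67 cases (17.9%, and 22.2% of the marked ones), several of which share a region. Hox genes had one in 7 of 39 (17.9%, and 21.2% of the marked ones). Hoxc10 and Hoxc5 lay at the same region of 6758 bases.

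Lists of markers of other cell types were small and differed in their counts. No broad region was found at the 12 endothelial, 12 immune, 10 adipocyte, 8 mural, 10 neuronal or 13 matched liver genes. Endothelial genes had an H3K4me3 region at 11 of 12 members, with a median width of 1052 bases, so the mark was present there in narrower form. All 13 liver genes, and all but 2 of the 12 immune and of the 10 neuronal genes, had no H3K4me3 region at all. Fibroblast markers had a broad region at 3 of 10, the widest at Fbn1 (2578 bases), Pdgfra (2488 bases) and Ly6a (2101 bases). Satellite cell markers had one at 2 of 10, Hes1 (4387 bases) and Sdc4 (2073 bases). Pax7, the defining factor of these cells, had 1342 bases covered by H3K4me1 and by no Pol2 or H3K27ac peak. Schwann cell markers had one at 2 of 10, Pmp22 (2655 bases) and Egr2 (2607 bases). These 3 lists were above both background shares, with 33.3% of marked fibroblast, 28.6% of marked satellite cell and 33.3% of marked Schwann cell genes, each on fewer than 10 marked genes. For the 12 endothelial genes the interval reached 26.5%, and at 1500 bases 3 endothelial, 1 adipocyte and 1 mural gene had a region of that width. By comparison 6 of 12 genes that define the muscle fibre had one and 11 of 12 had H3K4me3. All 12 are also members of the fast or common sarcomere list, so this count is not separate from that one. The part of other cell types in the broad regions was not tested.

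**Figure D4:**
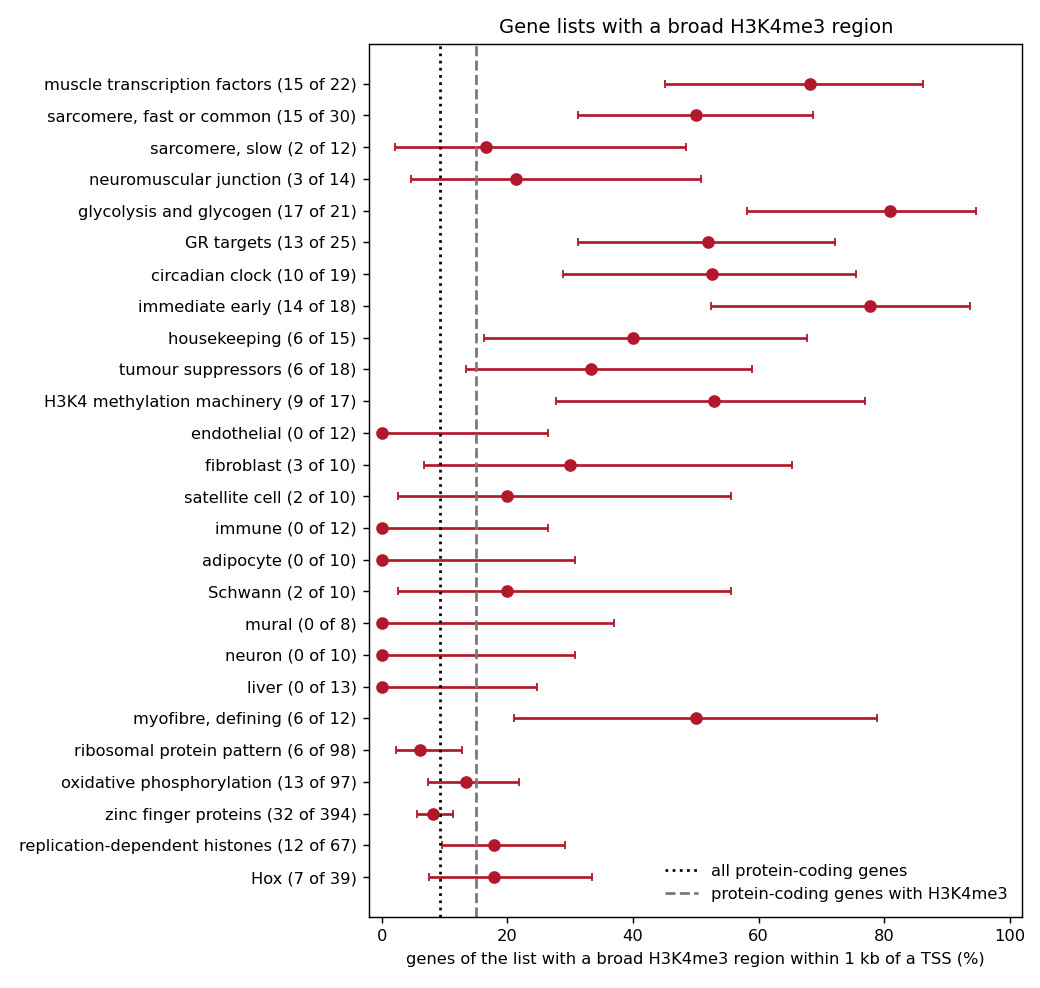
Share (%) of the genes of each list with a broad H3K4me3 region within 1 kb of a TSS, with exact 95% intervals and the count in brackets. The dotted line marks all protein-coding genes (9.27%) and the dashed line those with any H3K4me3 region (15%). Glycolysis and glycogen, immediate early and muscle transcription factor genes lie farthest to the right.

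Individual broad regions differed widely in what they carried. The widest, 7890 bases on chromosome 1 from 82284391 to 82292280, ran along Irs1 with H3K27ac over 92.1% of its width, Pol2 over 11.3% and 3 GR peaks. Setd1b, on chromosome 5 from 123136530 to 123143983, was acetylated over 99.1% and held 7 Pol2 and 6 GR peaks. Sgk1, on chromosome 10 from 21993569 to 21999698, had Pol2 over 98.0% of its region and H3K4me1 over 5.01%. These 3 are among the widest regions, yet Pol2 coverage separates Irs1 from Sgk1 by a wide margin.

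The 15 widest regions also took in the following genes. Brd2, which encodes a reader of acetylated histones, had 6474 bases (shared with H2-DMa), Irf2bp2 had 6024 bases with 8 Pol2 peaks and Tnrc18 had 5842 bases with 11 Pol2 peaks. Bcl6, a transcriptional repressor, shared 5613 bases with the overlapping gene model Gm37419. At Maf, with 5745 bases, Pol2 covered 7.66% and H3K4me1 1.65%. A region of 6270 bases had no protein-coding TSS within 1 kb and lay at the long non-coding RNA gene Lncpint, with 9 Pol2 and 4 GR peaks. A region of 6169 bases at 1110002E22Rik and Gm5105 had neither a GR nor an H3K4me1 peak and 98.4% H3K27ac coverage.

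GR peaks were most numerous at Txnip. This gene encodes an inhibitor of glucose uptake, and its region of 6679 bases on chromosome 3 from 96555737 to 96562415 held 11 GR peaks over 55.6% of its width. It had 1.4 CG dinucleotides per 100 bases and Pol2 over 89.4%. Tnrc18, Ubtf, which encodes a factor of ribosomal RNA transcription, and a region at the non-coding RNA gene Neat1 held 8 GR peaks each, and Arid2, a chromatin remodeller subunit gene, held 7. At Neat1 the region measured 3888 bases and Pol2 covered all of it. At least 2 GR peaks lay in 854 broad regions, at least 5 in 32, and none in 182. Per kb of region, GR peak midpoints were 0.594 in broad and 0.533 in narrower regions. In the summit window, which has the same length in every region, a GR peak was present in 82.8% of broad and 49.6% of narrower regions. Neighbouring peaks need not be separate binding sites.

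**Figure D5:**
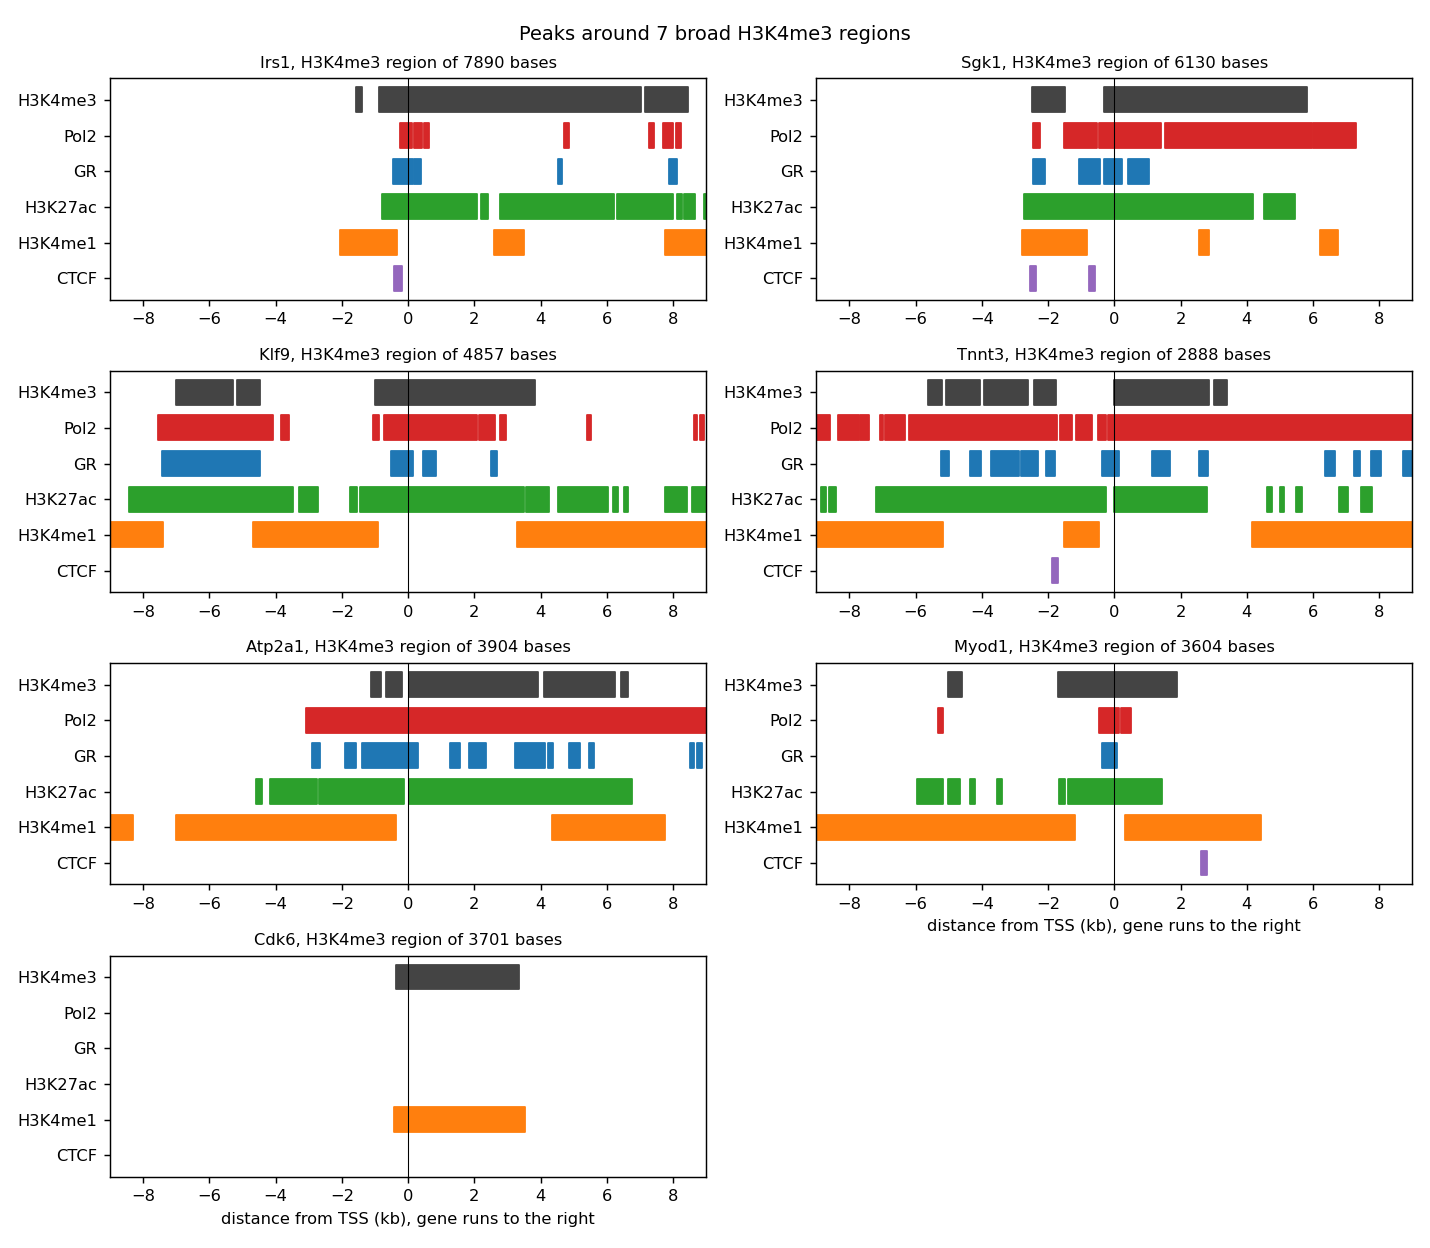
Peaks of the 6 antibodies within 9 kb of the TSS of 7 genes with a broad H3K4me3 region, drawn to scale with the gene running to the right. H3K4me1 peaks flank the H3K4me3 region at Sgk1 and Klf9, Pol2 fills it at Tnnt3 and Atp2a1, and at Cdk6 it lies under H3K4me1 alone. At Atp2a1 the line marks the TSS closest to the region, which ends next to it.

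A small set of broad regions lacked the marks of activity. No H3K27ac peak lay in 21 of them, and the 5 widest, at the cell cycle kinase gene Cdk6 (3701 bases), Prdm16 (2810 bases), A530084C06Rik (2677 bases), Gfra1 (2673 bases) and Nol4l (2631 bases), had no Pol2 or GR peak either. H3K4me1 covered between 95.8% and 100% of each. Prdm16 encodes a factor of brown fat and Gfra1 a receptor for a neurotrophic ligand. Without Pol2 but with H3K27ac were Wnt5a, a signalling ligand gene, with 3445 bases, and a region of 3285 bases shared by 9130213A22Rik and the repressor gene Hes7, which held 3 GR peaks. Among the 118 broad regions without Pol2, the median deposited fold was 21.4 and H3K4me1 covered a median of 96.7% of the width.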

How the data were processed

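Chromatin immunoprecipitation libraries of WT mouse skeletal muscle nuclei, 1 for each of 6 antibodies, and 2 inputs were prepared from 10 ng of DNA with 7 cycles of PCR, per the labels' protocols. Reads were handled with MACS2, Bowtie 1.0.0 and bcl2fastq 2.17.1.14 on build mm10, per the submitters' processing notes. Sequencing depth, the thresholds of the caller and any blacklist were not given in the sources used here. Peak lists as deposited give peak start and end in bases. For H3K4me3 and CTCF the authors also deposited a summit position, a score, the fold (a ratio) over control at the summit, and −log10 p-values and −log10 q-values. With no header present, the kind of each column was read off its values. Each list was called on a single library. H3K4me3 peaks on chromosome Y (21) and the mitochondrial genome (7), none of them 2000 bases wide, were left out.

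Overlap meant at least 1 shared base, except where coverage is given. TSS came from GENCODE M21 and sequence from RefSeq, both on GRCm38 (mm10). Coordinates are 1-based. Computation used Python 3.11.15, numpy 2.4.6, pandas 2.3.3, scipy 1.17.1 and pysam 0.24.0, and interval overlap and coverage code was tested on simulated data. Shares carry exact Clopper-Pearson intervals and differences, broad minus narrower, Newcombe intervals at 95%. Peaks rest on PCR reads without molecular identifiers, which are not independent molecules. No p-value was computed, because 1 library per antibody gives no spread between replicates.

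The regions and gene lists were chosen with earlier results of these data known. Named genes are those at the 15 widest regions, up to 3 members per list with the widest broad region, a fixed panel of 25 genes, the 3 regions nearest to each side of the threshold, the 5 widest regions without a TSS, without H3K27ac or without Pol2, and the 5 with the most GR or CTCF peaks. Other genes named, the classes of CpG density and Pol2 coverage, the motifs and the comparison with regions of 1000 to 1999 bases were chosen after values were seen. Alternatives changed the window, the overlap, the annotation, the width threshold and the deposited −log10 q-value required. Some genes that the naming rule takes in are not reported here.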

Additional observations from a re-analysis of the deposited data

How the results depend on the processing

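The number of broad regions, 1807, was 4525 with a threshold of 1500 bases and 344 with 3000. The values that follow are differences in points, broad minus narrower, unless another unit is named, and the cause of each shift was not tested. For a protein-coding TSS near the summit, 22.4 became 19.7 with the TSS of all genes, 35.3 with the TSS inside the region and 17.0 within 5 kb. With a threshold of 1500 bases the differences were 27.7 for the TSS, 40.9 for Pol2, 38.4 for GR, 30.7 for H3K27ac and -21.0 for H3K4me1. With 3000 bases they were 14.0 for the TSS, 28.4 for GR and -37.4 for H3K4me1. Over the whole region they were 40.6 for Pol2, 42.7 for GR and 29.6 for H3K27ac, and they reversed to 7.10 for H3K4me1 and 0.297 for CTCF. In the 200-base window they were 22.5 for Pol2, 15.9 for GR, 30.4 for H3K27ac and -36.6 for H3K4me1. In the window at the midpoint they were 26.9 for Pol2, 23.7 for GR, -34.7 for H3K4me1 and -5.83 for CTCF. With 50% of the window covered they were 21.7 for Pol2, 10.99 for GR, 47.5 for H3K27ac, -35.4 for H3K4me1 and -0.0834 for CTCF. Among regions with a deposited −log10 q of 20 or more they were 5.54 for the TSS, 13.9 for Pol2, 14.97 for GR and 11.4 for H3K27ac. Among regions at a TSS they were 24.4 for Pol2, 24.7 for GR, 20.1 for H3K27ac and -1.20 for CTCF. Against narrower regions of 1000 to 1999 bases, chosen after seeing the data, they were 0.595 for the TSS, 6.35 for Pol2, 8.11 for GR, 4.78 for H3K27ac, -27.2 for H3K4me1 and -1.22 for CTCF. The difference in median CpG density, in CG dinucleotides per 100 bases, was 3.6 and became 0.948 over the whole region, 2.9 at a TSS, 2.7 with 3000 bases and 1.8 against regions of 1000 to 1999 bases. The median share of width downstream of the TSS was 72.5% and became 54.0% with the most downstream TSS, 70.2% with 1500 bases and 76.9% with 3000. For Pol2 in the gene body, 16.3 became 10.8 with 1500 bases and 30.7 with 3000. The other 19 values of these comparisons moved by less than their intervals or, for counts, less than 1.5 times. Of 78 counts of list members under 3 alternatives, 29 moved by 1.5 times or more, most of them at 3000 bases. Leaving out a replicate was not possible with 1 library per antibody. No paired analysis was possible because no antibody has more than 1 library. Depth was not known, so the regions lacking a peak of another antibody are those where none was called.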
